A study of Mus musculus with 6 samples.

Results

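The fetal cardiac programme markers were 8 genes, taken from the platform's gene symbols: Nppa, Nppb, Acta1, Actc1, Myh6, Myh7, Mybpc2 and Tnni1. The array carried 12 probes for them. A detection filter left 7 of the 8 genes, and those 7 were tested among 10538 genes. Tnni1 was not detected on any array and was not tested.

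Expression was measured on 6 Illumina MouseWG-6 v2 BeadChip arrays with total RNA of cardiomyocyte-enriched populations from the hearts of C57BL/6J mice. The sham group had sham surgery and no named vehicle or drug. The TAC_DMSO group had transverse aortic constriction, an operation that narrows the aorta and raises the pressure load on the left ventricle, with the solvent DMSO. The TAC_BIX group had the same operation and BIX-01294, an inhibitor of the histone H3 lysine 9 methyltransferases G9a and GLP (Ehmt2 and Ehmt1), for 1 week from subcutaneous osmotic pumps. Each group had 2 arrays, described as biological replicates, with no genetic change named. The sources used here state neither the time on DMSO nor the number of mice behind an array.

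The fetal heart uses a set of contractile isoforms and hormones that the adult ventricle largely turns down after birth. In rodents, adult ventricular cardiomyocytes rely on the fast alpha myosin heavy chain (Myh6) and cardiac alpha-actin (Actc1), whereas the slow beta myosin heavy chain (Myh7), skeletal alpha-actin (Acta1) and the natriuretic peptides ANP (Nppa) and BNP (Nppb) are prominent before birth. Pressure overload is known to bring many of these transcripts back, and they are widely used as molecular markers of pathological hypertrophy.

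The start regions of 5 members that span the range of responses are shown, since the serum response factor, GATA, TEAD and NKX2-5 proteins are textbook regulators of such genes. Each window holds 300 bases of mouse assembly GRCm38.p6, with 250 before and 50 after a start site annotated by RefSeq, written 5′ to 3′ along the gene. The starts used for Nppb and Mybpc2, and those for Myh6 and Tnni1 whose windows are not shown, lie inside the genes' outer bounds. Capitals mark matches on either strand to a CArG box (the serum response factor motif), a MEF2 site, an M-CAT element (CATTCC, bound by TEAD proteins), a GATA motif (GATAA), an NKX2-5 motif (AAGTG) and a TATA box (TATAAA) in each window.
Acta1, chr8:123894726-123895025, minus strand: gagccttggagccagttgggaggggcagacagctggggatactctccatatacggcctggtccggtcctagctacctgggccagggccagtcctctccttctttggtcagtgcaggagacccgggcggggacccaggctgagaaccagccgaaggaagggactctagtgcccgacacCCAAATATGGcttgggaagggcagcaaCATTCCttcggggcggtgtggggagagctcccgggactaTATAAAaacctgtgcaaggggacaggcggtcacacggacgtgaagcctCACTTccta
Actc1, chr2:114052826-114053125, minus strand: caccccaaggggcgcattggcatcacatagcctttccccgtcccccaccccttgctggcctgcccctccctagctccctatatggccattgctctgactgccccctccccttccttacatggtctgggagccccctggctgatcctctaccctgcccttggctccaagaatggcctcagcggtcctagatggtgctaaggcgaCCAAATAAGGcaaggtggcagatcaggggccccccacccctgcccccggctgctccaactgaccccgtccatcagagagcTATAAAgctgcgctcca
Nppa, chr4:148000472-148000771, plus strand: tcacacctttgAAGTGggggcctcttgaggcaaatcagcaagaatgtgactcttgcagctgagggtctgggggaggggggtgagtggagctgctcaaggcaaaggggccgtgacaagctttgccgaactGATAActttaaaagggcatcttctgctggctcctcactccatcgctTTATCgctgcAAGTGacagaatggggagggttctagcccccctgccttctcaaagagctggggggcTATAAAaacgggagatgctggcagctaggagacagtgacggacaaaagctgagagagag
Nppb, chr4:147985650-147985949, plus strand: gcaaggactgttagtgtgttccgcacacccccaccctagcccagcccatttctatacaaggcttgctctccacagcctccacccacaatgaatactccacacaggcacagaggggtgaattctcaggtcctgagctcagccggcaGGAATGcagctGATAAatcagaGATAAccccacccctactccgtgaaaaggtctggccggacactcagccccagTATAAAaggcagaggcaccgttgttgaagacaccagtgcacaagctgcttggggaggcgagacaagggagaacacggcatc
Mybpc2, chr7:44524620-44524919, minus strand: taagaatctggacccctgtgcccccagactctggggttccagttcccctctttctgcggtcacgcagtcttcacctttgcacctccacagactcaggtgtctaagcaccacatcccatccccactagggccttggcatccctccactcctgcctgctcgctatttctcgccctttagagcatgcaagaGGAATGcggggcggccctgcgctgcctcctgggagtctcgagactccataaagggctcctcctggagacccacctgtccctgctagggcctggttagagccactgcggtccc

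A CArG box stood in the windows of both actin members, at -73 to -64 from the annotated start of Acta1 and at -47 to -38 from that of Actc1. Of all 32851 windows in the table, 1.63% held one. GATA motifs occurred in the windows of both natriuretic peptide genes, at -121 to -117 and -75 to -71 in Nppa and at -94 to -90 and -83 to -79 in Nppb, against 25.4% of all windows. An M-CAT element was found for 5 members (Nppb, Acta1, Myh6, Myh7 and Mybpc2), and 14.7% of all windows held it. The windows of 5 members had the NKX2-5 motif (Nppa, Acta1, Myh6, Myh7 and Tnni1), as did 46.4% of all windows. Those of 5 members had the TATA box (Nppa, Nppb, Acta1, Actc1 and Myh6), against 13.6% of all windows. It stood at -9 to -4 in Nppa, -31 to -26 in Nppb and -7 to -2 in Acta1. In Actc1 (34 to 39) and Myh6 (2 to 7) it lay after the annotated start. No member window matched the MEF2 site, which 3.19% of all windows held. No marked motifs overlapped in the 5 windows printed. Matches describe these letters alone.

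The members include 2 pairs of neighbouring genes. Nppb (chr4:147985786-147987205) and Nppa (chr4:148000722-148002074) lay 13516 bases apart, and Myh6 (chr14:54941921-54968017) and Myh7 (chr14:54970684-54994626) lay 2666 bases apart in GRCm38.p6. The remaining members were at chr8:123891758-123894775 (Acta1), chr2:114047282-114052875 (Actc1), chr7:44501699-44524715 (Mybpc2) and chr1:135783033-135810989 (Tnni1).

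The arrays detected 36.7% to 40.9% of 45281 probes and had mean signals of 296.3 to 439.3. The 11 cardiomyocyte markers with a usable probe were detected on all 6 arrays, with a summed signal of 155120 to 157250 in sham, 173140 to 177700 in TAC_DMSO and 190240 to 194070 in TAC_BIX. Markers of other cells were detected as well. Summed deposited signals are not normalized, and the arrays differed in mean signal. The median deviation of each list's normalized log2 values from the genes' own means over the 6 arrays is therefore given beside the sums. For cardiomyocyte markers it was 0.002 and 0.08 in sham, -0.17 and -0.0006 in TAC_DMSO, then 0.06 and 0.02 in TAC_BIX. It did not rise from group to group as their sums did. Fibroblast markers summed to 7699.3 to 10209 in sham, 10271 to 17690 in TAC_DMSO and 15114 to 23395 in TAC_BIX. Their median deviations were -0.39 on both sham arrays, 0.45 and -0.27 in TAC_DMSO, then -0.09 and 0.67 in TAC_BIX, so that TAC_DMSO replicate 2 lay near sham. Smooth muscle and pericyte markers gave sums of 14915 to 16051, 21780 to 30026 and 28943 to 34985 in the same order, with deviations of -0.21 and -0.17, 0.14 and -0.13, and 0.10 and 0.34. For endothelial markers the sums were 2411.6 to 3362.5, 4830.3 to 4867.6 and 4983 to 6648.2, and the deviations -0.14 and -0.45, -0.11 and 0.15, and -0.02 and 0.37. Macrophage and leukocyte markers summed to 4491.9 to 5826.1, 6762.9 to 14477 and 8641.6 to 11945, whereas their deviations overlapped between all groups (-0.70 and 0.37, 0.73 and -0.33, and -0.16 and 0.17). Erythroid markers summed to 864.14 to 6829.5, 15642 to 29808 and 2592.1 to 8755.5, with deviations of -0.17 and -1.65, -0.22 and 2.25, and 0.43 and -1.05 that also overlapped. In such bulk RNA, fewer cells of a type and less RNA per cell cannot be told apart, and the part of these markers in the differences below was not tested.

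Against sham, 3 of the 7 tested members rose in TAC_DMSO: Acta1, Mybpc2 and Nppa. Over all genes 43 of 10538 were called at a limma adjusted p under 0.05 (0.408%), and 22 were called higher (0.209%). Nppb was higher in all TAC_DMSO arrays than in all sham arrays without passing the test, and Actc1 and Myh6 had differences close to 0. Myh7 varied more within groups than the other members. The median difference of the 7 members was 1.30 on the log2 scale, and that of all genes tested was -0.01.

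Of the hormones, Nppa encodes atrial natriuretic peptide, which promotes sodium excretion and vasodilation. Its normalized log2 signal was 13.28 and 13.60 on the sham arrays, 14.68 and 14.81 on the TAC_DMSO arrays, then 14.76 and 14.53 on the TAC_BIX arrays. Both constricted groups lay above both sham arrays and overlapped each other. Nppa rose by 1.30 on the log2 scale in TAC_DMSO against sham, a 2.47-fold difference (95% interval of the log2 difference 0.85 to 1.75, limma adjusted p = 0.0499). Before normalization its signals were 9121 and 9060 in sham, 28156 and 28931 in TAC_DMSO, then 31548 and 24442 in TAC_BIX, and the mean signal was 3.14-fold higher in TAC_DMSO than in sham. The normalized values are therefore less far apart than the deposited signals. Mean signals of whole arrays differed too, being 357.9 and 296.3 for sham against 432.7 and 391.1 for TAC_DMSO. The highest normalized value on each array was 14.98, which limits how far a bright probe can rise. Median scaling in place of quantile normalization sets no such common limit. It gave Nppa a difference of 1.57, or 1.25 once the median of all genes (0.31) was taken off. The part of the limit in the smaller normalized difference was not tested.

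Nppb encodes B-type natriuretic peptide, the ventricular hormone used clinically as a marker of heart failure. The log2 signals were 13.47 and 13.20 in sham, 14.15 and 13.75 in TAC_DMSO, then 13.86 and 13.91 in TAC_BIX. Sham did not overlap with either constricted group, and the constricted groups overlapped. The difference of TAC_DMSO from sham was 0.62 on the log2 scale (1.53-fold, 95% interval 0.14 to 1.09), with a limma adjusted p of 0.141. In the deposited signals, where sham read 10365 and 6778 and TAC_DMSO 20728 and 14897, the ratio of means was 2.08-fold. Within each array, the Nppa minus Nppb difference, set to the sham mean, was -0.30 and 0.30 in sham, 0.42 and 0.95 in TAC_DMSO, then 0.79 and 0.52 in TAC_BIX, so that Nppa had the larger shift on all 4 constricted arrays.

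Nppa is also abundant in atrial cells. Of 9 atrial markers listed, Bmp10 was detected on 0 arrays and Kcna5 on the 4 arrays of the constricted groups. Summed signals of the list were 7828.3 to 9277.6 in sham, 15403 to 17895 in TAC_DMSO and 9956.3 to 10476 in TAC_BIX. In TAC_DMSO the brightest gene of the list was Myl1, a fast skeletal muscle light chain, at 13.37 and 12.88 on the log2 scale. Myl4 came next, at 11.24 and 11.99, so that the TAC_DMSO sums rest largely on Myl1. The list's normalized median deviations ran in another order, at 0.49 and 0.61 in sham, 0.03 and 0.31 in TAC_DMSO, then -0.50 and -0.18 in TAC_BIX. Its genes differed among themselves. Sarcolipin (Sln), an atrial calcium pump regulator, had log2 signals of 9.97 and 10.79 in sham, 8.52 and 10.07 in TAC_DMSO, then 6.03 and 5.77 in TAC_BIX. The light chain Myl1, whose values are given below, was higher in both constricted groups than in sham, and the potassium channel Kcna5 read 4.71 and 4.50 in sham, 5.16 and 5.13 in TAC_DMSO, then 5.54 and 5.50 in TAC_BIX. The part of atrial cells in the Nppa values was not tested.

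Among the actins, Acta1, the main sarcomeric actin of adult skeletal muscle, had log2 signals of 12.65 and 12.80 in sham, 14.70 and 14.71 in TAC_DMSO, then 14.79 and 14.76 in TAC_BIX. The constricted arrays lay in a narrow band well above sham. Acta1 rose by 1.98 in TAC_DMSO against sham (3.95-fold, 95% interval 1.60 to 2.37, limma adjusted p = 0.0268), and no gene of the 10538 had a smaller p in this comparison. The deposited signals were 5997 and 5008 in sham and 28260 and 27212 in TAC_DMSO, a 5.04-fold ratio of means.

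Actc1, the actin of adult cardiac sarcomeres, gave log2 signals of 14.30 and 14.69 in sham, 14.42 and 14.47 in TAC_DMSO, then 14.73 and 14.44 in TAC_BIX on its brighter probe. All groups overlapped, near the highest value of the scale. The difference of TAC_DMSO from sham was -0.05 (95% interval -0.52 to 0.42, limma adjusted p = 0.914). The other Actc1 probe read 13.93 and 14.04 in sham, 13.49 and 13.65 in TAC_DMSO, then 13.93 and 14.03 in TAC_BIX. On it TAC_DMSO was below both other groups, with a difference of -0.42 from sham and a limma adjusted p of 0.219 when each probe was tested. Within each array, Acta1 minus Actc1 was shifted from the sham mean by 2.05 and 2.01 log2 units in TAC_DMSO and by 1.84 and 2.09 in TAC_BIX, against 0.12 and -0.12 in sham. Both brighter probes being near the highest value on constricted arrays, the shift was also taken against the other Actc1 probe, after the values were seen. It was then 2.47 and 2.33 in TAC_DMSO, 2.12 and 2.00 in TAC_BIX, and -0.02 and 0.02 in sham.

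**Figure D1:**
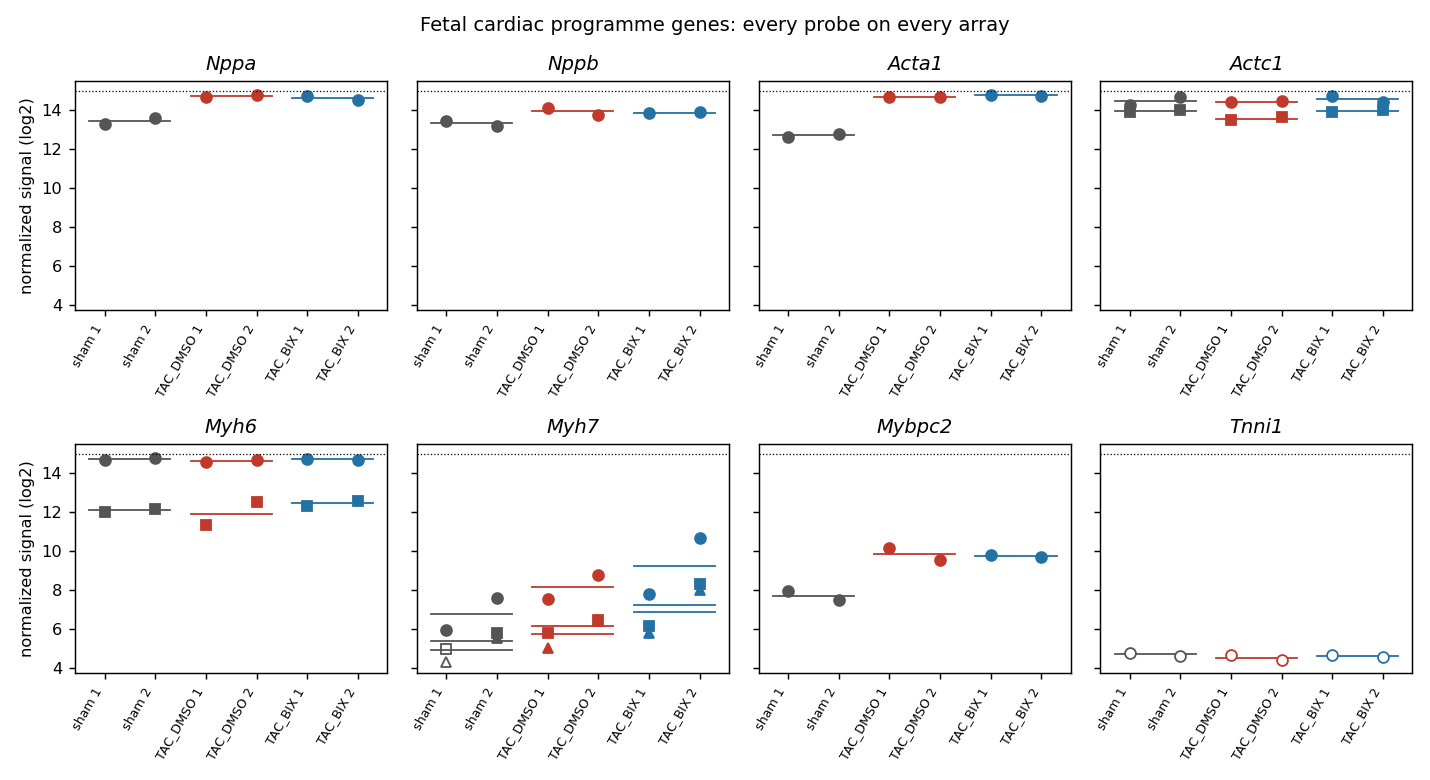
Normalized log2 signal (vertical axis) of every probe of the 8 genes on each of the 6 arrays (horizontal axis), with 1 marker shape per probe, filled where the detection p was under 0.05 and open otherwise, and lines at group means. The dotted line is the highest value of the scale, 14.98. Nppa, Nppb, Acta1 and Mybpc2 step up from sham to both constricted groups, all 3 Myh7 probes are highest on TAC_BIX replicate 2, and Tnni1 is open throughout.

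Of the myosins, Myh6, the fast adult isoform of the mouse ventricle, had log2 signals of 14.66 and 14.76 in sham, 14.56 and 14.68 in TAC_DMSO, then 14.74 and 14.66 in TAC_BIX. The groups overlapped, again near the highest value of the scale. The difference of TAC_DMSO from sham was -0.09 (95% interval -0.47 to 0.30, limma adjusted p = 0.794). A dimmer Myh6 probe, further from that limit, read 12.03 and 12.17 in sham, 11.35 and 12.50 in TAC_DMSO, then 12.34 and 12.56 in TAC_BIX. Its difference of TAC_DMSO from sham was -0.17, with TAC_DMSO arrays on either side of sham.

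Myh7 encodes the slow fetal isoform. Its brightest probe read 5.95 and 7.60 in sham, 7.56 and 8.78 in TAC_DMSO, then 7.77 and 10.69 in TAC_BIX on the log2 scale. TAC_DMSO overlapped both other groups, and a single array, TAC_BIX replicate 2, stood far above the rest. The deposited signals were 144 and 208 in sham, 303 and 505 in TAC_DMSO, then 353 and 2144 in TAC_BIX. The difference of TAC_DMSO from sham was 1.39 with an SE of 0.93 (95% interval -0.77 to 3.56, limma adjusted p = 0.415). It ranged from 0.56 without sham replicate 1 to 2.24 without sham replicate 2.

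The other Myh7 probes were both undetected on sham replicate 1. One read 4.95 and 5.77 in sham, 5.79 and 6.46 in TAC_DMSO, then 6.13 and 8.31 in TAC_BIX. On it TAC_DMSO replicate 1 and sham replicate 2 changed places, so that TAC_DMSO narrowly did not overlap with sham. For the third probe the values were 4.29 and 5.56, 5.02 and 6.42, and 5.77 and 7.99, in the array order of the brightest probe. TAC_BIX replicate 2 was highest on all 3 probes. On that array the 10 fibroblast markers also had their highest median deviation from their own mean over the arrays (0.67 log2 units) and their highest summed signal, 23395. The same held for smooth muscle and pericyte markers (0.34 and 34985) and endothelial markers (0.37 and 6648.2). It did not hold for macrophage and leukocyte or erythroid markers. The part of these cells in the Myh7 values was not tested. Relative to the sham mean, Myh7 minus Myh6 was -0.78 and 0.78 in sham, 0.92 and 2.04 in TAC_DMSO, then 0.96 and 3.96 in TAC_BIX. These shifts were above both sham values on all constricted arrays, narrowly so on replicate 1 of either constricted group. Against the dimmer Myh6 probe, also taken after the values were seen, they were -0.76 and 0.76 in sham, 1.53 and 1.61 in TAC_DMSO, then 0.75 and 3.45 in TAC_BIX. TAC_BIX replicate 1 was then no longer above both sham arrays.

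**Figure D2:**
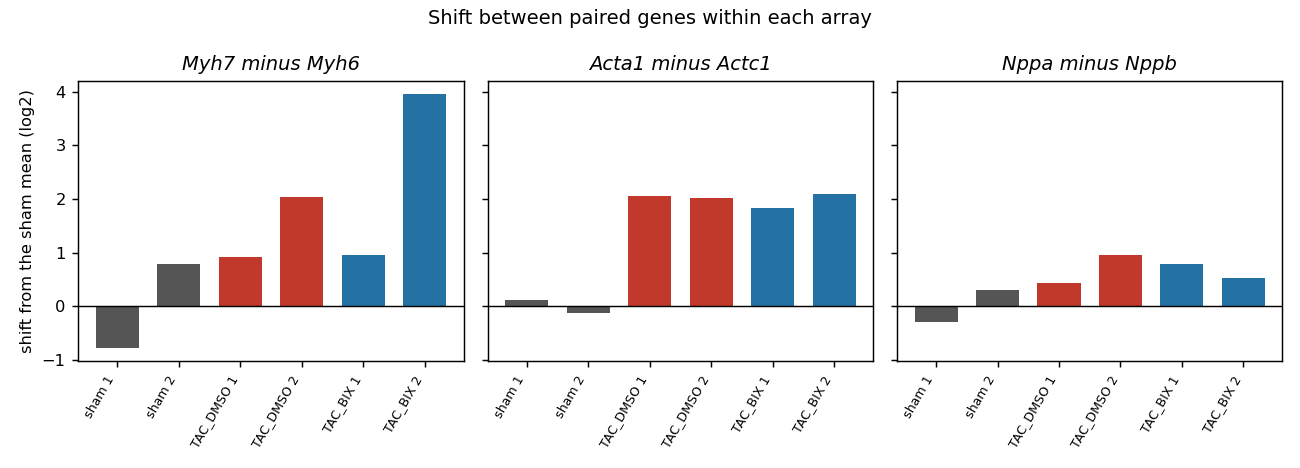
Difference between the log2 signals of 2 member genes within each array, shown as its shift from the sham mean (vertical axis, log2) for the 6 arrays (horizontal axis), one bar per array. Acta1 minus Actc1 stands at 1.84 to 2.09 on all constricted arrays, whereas Myh7 minus Myh6 runs from 0.92 to 3.96.

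Mybpc2, fast skeletal myosin-binding protein C, a thick filament protein, had log2 signals of 7.93 and 7.47 in sham, 10.17 and 9.51 in TAC_DMSO, then 9.80 and 9.70 in TAC_BIX. Both constricted groups were above sham and the TAC_BIX arrays lay between those of TAC_DMSO. Mybpc2 rose by 2.14 in TAC_DMSO against sham (4.42-fold, 95% interval 1.54 to 2.75, limma adjusted p = 0.0439), the largest difference among the 7 members. Deposited signals of 292 and 197 in sham and 1399 and 785 in TAC_DMSO gave a 4.47-fold ratio.

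Acta1 and Mybpc2 are both best known in skeletal muscle, so its markers were read beside them. Of 13 listed, 12 had a probe, and 2 to 4 were detected per array. Myl1, a fast skeletal light chain, was on the atrial list and not on this one. Myh1, Myh4, Tnnc2, Atp2a1, Ryr1, Pvalb and Myod1, which define fast skeletal muscle or its precursors, were detected on 0 arrays. Tnni2 and Mylpf were detected on all 6. Summed signals of the list, most of them from undetected probes, were 1390.8 to 1588.1 in sham, 1548.5 to 1630.6 in TAC_DMSO and 1496.8 to 1550.7 in TAC_BIX. Median deviations of the 3 kept genes were 0.31 and -0.03, 0.44 and 0.05, and -0.06 and -0.56. In log2 signal Mylpf read 7.8 and 7.7, 6.7 and 7.4, and 6.1 and 6.5. Tnni2 read 6.8 and 6.5, 7.0 and 6.6, and 6.4 and 5.7. Tnnt3, near background, read 4.5 and 4.3, 5.1 and 4.5, and 4.9 and 4.8. The part of skeletal muscle in the Acta1 and Mybpc2 values was not tested.

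Tnni1, slow skeletal troponin I, is the inhibitory troponin subunit of the fetal heart and gives way to Tnni3 after birth. Its single probe gave signals of 118 and 108 in sham, 120 and 108 in TAC_DMSO, then 121 and 114 in TAC_BIX, with detection p-values from 0.0983 to 0.549. It was not well above background on any array, so no fold was computed.

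Compared group by group, 4 of 7 members had TAC_DMSO arrays that did not overlap with sham, all of them higher (Nppa, Nppb, Acta1 and Mybpc2). Over all genes 53.8% did not overlap and 24.9% did so upwards. The same 4 members had an unadjusted limma p under 0.05, as did 22.4% of all genes. The 3 calls depended on single arrays. Leaving out sham replicate 1, sham replicate 2, TAC_DMSO replicate 1, TAC_BIX replicate 1 or TAC_BIX replicate 2 left 0 members called and 0 genes called in all. Leaving out TAC_DMSO replicate 2 left Acta1 and Mybpc2 called and gave Nppa an adjusted p of 0.0628. Over these 6 omissions the differences from sham stayed at 1.91 to 2.03 for Acta1, 1.81 to 2.46 for Mybpc2 and 1.15 to 1.42 for Nppa. With no filter on detection only Acta1 was called, and with only the sham and TAC_DMSO arrays in the fit, 0 members.

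The effect of the drug on constricted hearts is read from TAC_BIX against TAC_DMSO. No member was called, and 0 of 10538 genes were (0%, and 0% higher). At an unadjusted limma p under 0.05 there were 2090 genes (19.8%), none of them a member. The member median was 0.07, against 0.03 over all genes. In the 17 other settings tried, 0 members were called each time, while the count over all genes went up to 709.

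For Nppa and Acta1, both constricted groups lay close to the highest value of the scale, 14.98, where a further rise would be compressed, so their intervals do not bound it. The difference of TAC_BIX from TAC_DMSO was -0.09 for Nppa (95% interval -0.54 to 0.35, limma adjusted p = 0.828). It was 0.07 for Acta1 (-0.31 to 0.46, adjusted p = 0.848) and -0.09 for Mybpc2 (-0.70 to 0.52, adjusted p = 0.882). Each interval includes 0 and both directions. With median scaling in place of quantile normalization, which sets no common highest value, Nppa differed by -0.07 and Acta1 by 0.11. Once the median of all genes (0.23) was taken off, these values were -0.30 and -0.12. Acta1 was the member whose TAC_BIX arrays did not overlap with TAC_DMSO, by a margin smaller than its spread in sham. This pattern was found for 51.7% of all genes, and in the higher direction for 28.7%.

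Nppb differed by -0.06 between the constricted groups (95% interval -0.54 to 0.41, limma adjusted p = 0.888), Actc1 by 0.14 (-0.33 to 0.61, adjusted p = 0.745) and Myh6 by 0.08 (-0.30 to 0.47, adjusted p = 0.828). On the other Actc1 probe TAC_BIX was 0.41 higher than TAC_DMSO without overlap, with an adjusted p of 0.256 when each probe was tested. On the dimmer Myh6 probe it was 0.52 higher, with overlap. Myh7 had the widest interval, from -1.10 to 3.22 around a difference of 1.06 (adjusted p = 0.570). That difference turned to -0.40 without TAC_BIX replicate 2, and was 2.53 without TAC_BIX replicate 1, 0.44 without TAC_DMSO replicate 1 and 1.66 without TAC_DMSO replicate 2.

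**Figure D3:**
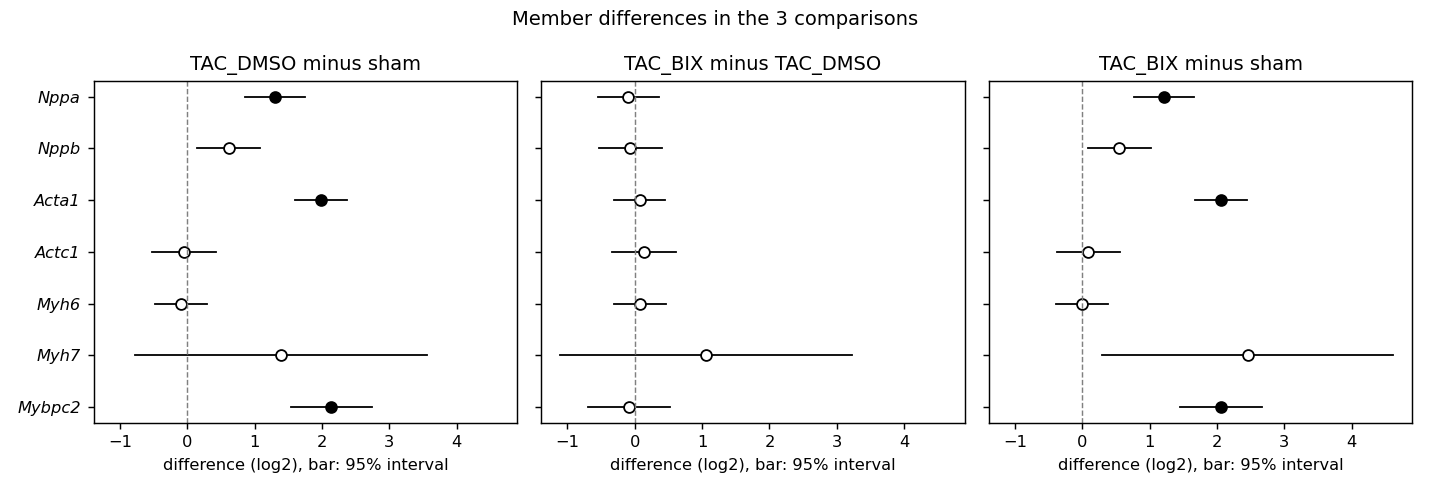
Log2 difference (horizontal axis) of the 7 tested members (vertical axis) in the 3 comparisons, with 95% intervals of the limma model as bars. Filled points have an adjusted p under 0.05. Nppa, Acta1 and Mybpc2 are filled against sham in both constricted groups, and all points of TAC_BIX minus TAC_DMSO are open, with Myh7 the widest.

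TAC_BIX against sham shares its sham arrays with the first comparison, so the 2 sets of differences are not independent. The same 3 members rose. Acta1 was 2.05 higher in TAC_BIX (4.15-fold, 95% interval 1.67 to 2.44, limma adjusted p = 0.0136), again with the smallest p of all genes. Mybpc2 was higher by 2.05 (4.15-fold, 1.45 to 2.66, adjusted p = 0.0169) and Nppa by 1.21 (2.31-fold, 0.76 to 1.66, adjusted p = 0.0223). Over all genes 701 were called (6.65%), 289 of them higher (2.74%). The member median was 1.21, against -0.00 over all genes.

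Nppb was 0.55 above sham in TAC_BIX (95% interval 0.08 to 1.02, adjusted p = 0.140). Actc1 differed by 0.09 (-0.38 to 0.56, adjusted p = 0.816) and Myh6 by -0.01 (-0.39 to 0.38, adjusted p = 0.986). Their other probes differed in sign from these. When each probe was tested, the other Actc1 probe differed by -0.01 (limma adjusted p = 0.986). The dimmer Myh6 probe was 0.35 higher than sham without overlap (limma adjusted p = 0.539). For Myh7 the difference was 2.45 (0.29 to 4.62, adjusted p = 0.149), and it fell to 0.99 without TAC_BIX replicate 2, was 1.62 without sham replicate 1 and was 3.92 without TAC_BIX replicate 1. Its other probes differed by 1.86 and 1.96, with adjusted p of 0.0998 and 0.134 when each probe was tested. Myh7 was called in 2 other settings. With median scaling it differed by 3.09 (limma adjusted p = 0.00104), or 2.56 once the shift of all genes is taken off, and 35.7% of all genes were called. With the replicate number as a block it differed by the same 2.45 (limma adjusted p = 0.0488), and 2.4% of all genes were called.

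Arrays of TAC_BIX and sham did not overlap for 5 of 7 members, Nppa, Nppb, Acta1, Myh7 and Mybpc2, all higher in TAC_BIX. The share over all genes was 58.4%, and 29.8% upwards. These 5 also had an unadjusted limma p under 0.05, as did 26.4% of all genes. The 3 calls were lost without sham replicate 1, sham replicate 2 or TAC_BIX replicate 2, where 2, 0 and 0 genes were called in all. Without TAC_BIX replicate 1 Acta1 alone was called. The differences themselves stayed at 1.98 to 2.10 for Acta1, 1.83 to 2.27 for Mybpc2 and 1.05 to 1.33 for Nppa over the 6 omissions.

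**Figure D4:**
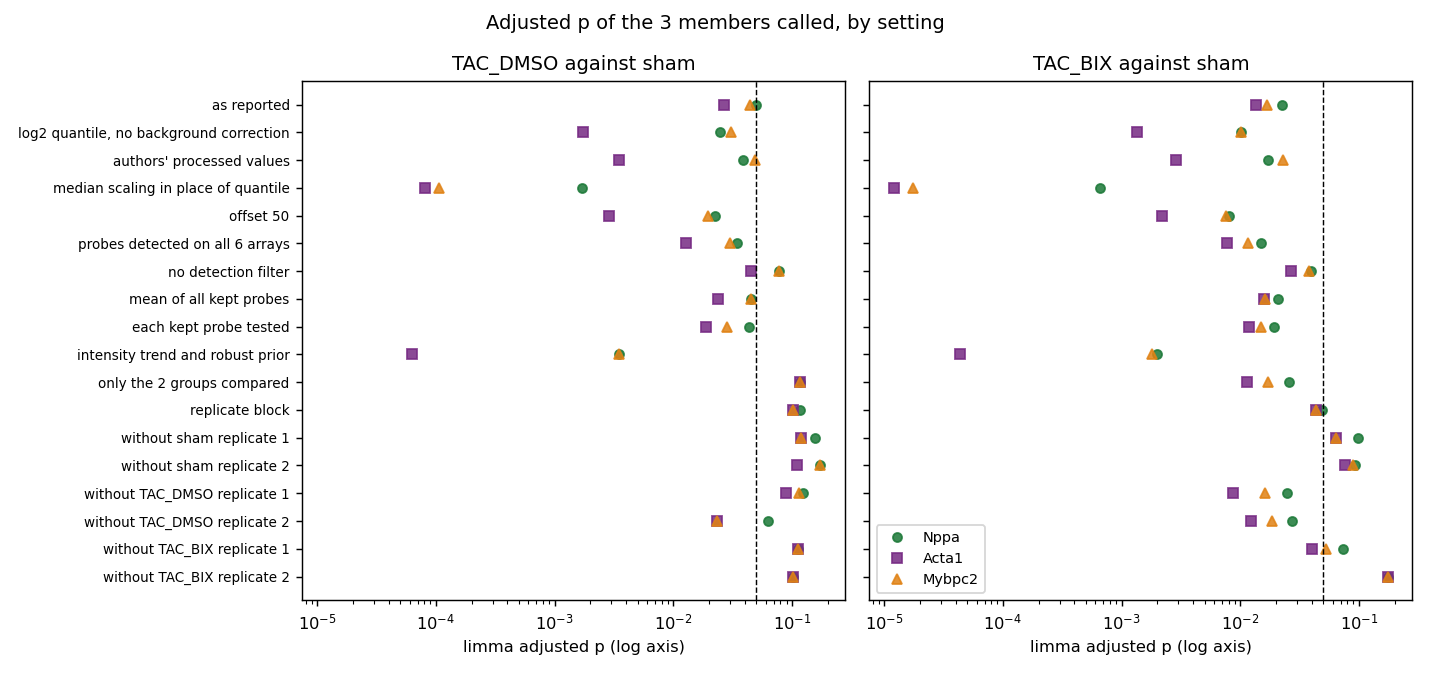
Adjusted p (log axis) of Nppa, Acta1 and Mybpc2 against sham in the reported fit and in 17 alternatives (vertical axis), for TAC_DMSO on the left and TAC_BIX on the right. The dashed line is the threshold of 0.05. Points to its right were not called, as for all 3 genes without either sham array.

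By group mean, Acta1 was highest in TAC_BIX (14.78 ± 0.02, SD, n = 2), then TAC_DMSO (14.71 ± 0.01) and sham (12.72 ± 0.11), the constricted groups being apart by more than their SD but not passing the test. Nppa (14.74 ± 0.09 in TAC_DMSO, 14.65 ± 0.16 in TAC_BIX, 13.44 ± 0.23 in sham) and Mybpc2 (9.84 ± 0.46, 9.75 ± 0.07 and 7.70 ± 0.32) had TAC_DMSO first, and the constricted groups did not differ beyond their spread. Nppb followed the same order with 13.95 ± 0.28, 13.88 ± 0.03 and 13.33 ± 0.19. Myh7 was ordered TAC_BIX (9.23 ± 2.07), TAC_DMSO (8.17 ± 0.87) and sham (6.78 ± 1.17), with neighbours within their spread. On their brighter probes, Actc1 (14.59 ± 0.20 in TAC_BIX, 14.50 ± 0.28 in sham, 14.45 ± 0.03 in TAC_DMSO) and Myh6 (14.71 ± 0.07 in sham, 14.70 ± 0.06 in TAC_BIX, 14.62 ± 0.08 in TAC_DMSO) had no neighbours that differed beyond theirs. On the other Actc1 probe TAC_DMSO (13.57 ± 0.11) lay below sham (13.99 ± 0.08) and TAC_BIX (13.98 ± 0.07) without overlap. On the dimmer Myh6 probe TAC_BIX (12.45 ± 0.16) lay above sham (12.10 ± 0.10), and TAC_DMSO (11.93 ± 0.81) overlapped both. None of these passed the test.

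The members' partners in the sarcomere were read beside them. Of 25 partner and alternative isoforms, 20 were tested, with medians of -0.12, 0.00 and -0.08 in TAC_DMSO against sham, TAC_BIX against TAC_DMSO and TAC_BIX against sham. One rose and 0 fell in the first comparison, where 22 of all 10538 genes rose and 21 fell. This was Myl1, a fast skeletal muscle light chain that was also on the atrial list. It read 11.76 and 11.38 in sham, 13.37 and 12.88 in TAC_DMSO, then 12.92 and 12.70 in TAC_BIX. Like Acta1 and Mybpc2, it was above sham in both constricted groups, by 1.56 in TAC_DMSO (limma adjusted p = 0.0499) and 1.25 in TAC_BIX (adjusted p = 0.0286).

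Tnni3, the adult cardiac counterpart of the undetected Tnni1, had a difference of -0.55 in TAC_DMSO against sham (limma adjusted p = 0.130) and fell by 0.80 in TAC_BIX against sham (adjusted p = 0.0391). The log2 signals of Tnni3 were 12.71 and 12.78 in sham, 12.12 and 12.26 in TAC_DMSO, then 12.04 and 11.84 in TAC_BIX. In TAC_BIX against sham 4 partner isoforms fell (of all genes, 412 fell and 289 rose), the others being the atrial light chains Myl7 (-4.04, adjusted p = 0.0136) and Myl4 (-3.12, adjusted p = 0.0136) and the myosin-binding protein Mybphl (-3.18, adjusted p = 0.0161). Against TAC_DMSO Myl7, Myl4 and Mybphl differed by -3.17, -2.93 and -2.84, with adjusted p of 0.0652, 0.0590 and 0.0652. The tested members other than Myh7 differed between TAC_BIX and TAC_DMSO by -0.09 to 0.14.

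**Figure D5:**
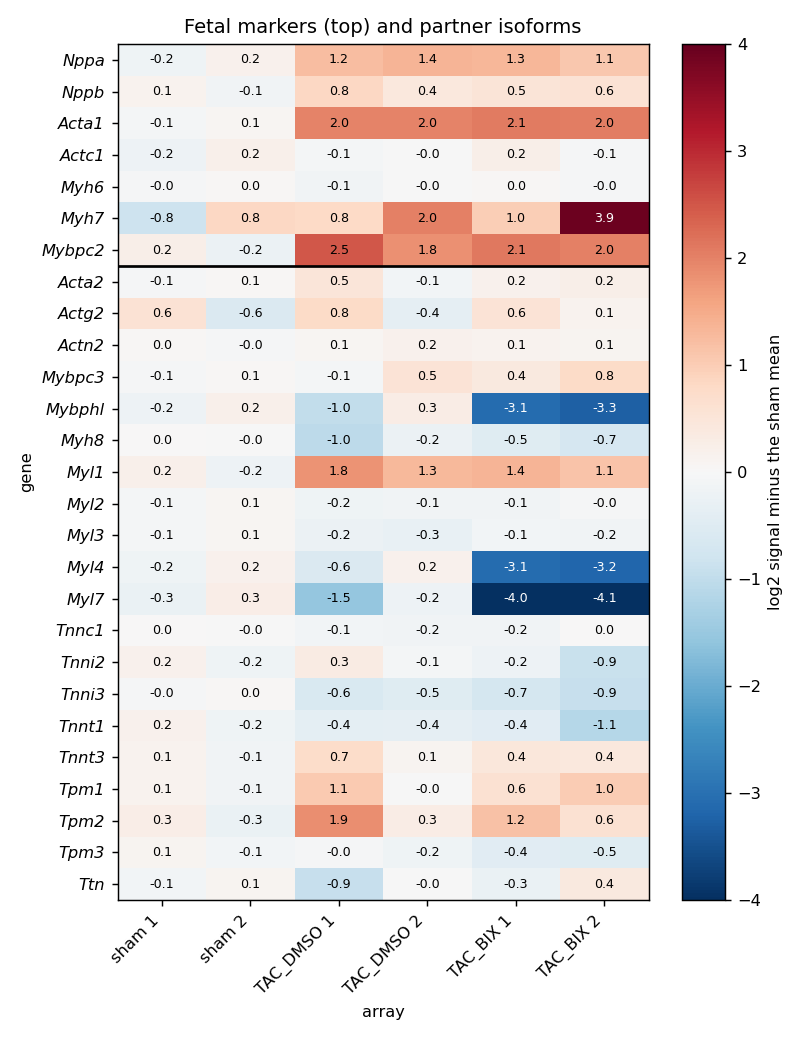
Log2 signal of each tested member (above the line) and partner isoform (below it) on the 6 arrays (horizontal axis), as its difference from the gene's sham mean, printed in each cell. Colours end at 4 and -4. Acta1 stands at 2.0 to 2.1 on all constricted arrays, whereas Myl7, Myl4 and Mybphl are lowest in both TAC_BIX arrays.

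Downstream of the 2 hormone genes, 9 of 12 genes for processing, receptors and signalling were tested, and 0 passed the test in any comparison. Their medians were -0.40 in TAC_DMSO against sham, 0.28 in TAC_BIX against TAC_DMSO and -0.14 in TAC_BIX against sham. At an unadjusted limma p under 0.05, 1 was higher and 5 lower in the first, 3 higher and 0 lower in the second, and 1 and 1 in the third. Over all 10538 genes these counts were 1139 higher and 1225 lower, 963 and 1127, and 1384 and 1397. Npr3, the clearance receptor that removes natriuretic peptides, read 7.19 and 7.38 in sham, 6.51 and 6.40 in TAC_DMSO, then 6.89 and 7.08 in TAC_BIX. The Npr3 groups did not overlap, with TAC_DMSO lowest and a difference from sham of -0.82 (adjusted p = 0.0750).

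Pde2a, a cyclic GMP-stimulated phosphodiesterase, differed by -0.93 in TAC_DMSO against sham (adjusted p = 0.0754), and Prkg1, the cyclic GMP-dependent kinase, by 0.45 (adjusted p = 0.178). In TAC_BIX against TAC_DMSO the values were 0.53 for Npr3, 0.50 for Pde2a and 0.58 for Pcsk6, a proprotein convertase. Against sham, TAC_BIX differed by 0.64 in Prkg1 (adjusted p = 0.0647). Npr1, the signalling receptor of both hormones, was detected on the 2 sham arrays and on no constricted array. Its sham values, 5.055 and 5.030, lay close to the lowest detected values of those arrays, 4.99 and 4.96. It was at least 1.12-fold lower in TAC_DMSO and at least 1.17-fold lower in TAC_BIX than in sham (limma adjusted p of 0.203 and 0.0804).

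Of 20 other reporters of hypertrophy and wall stress, 18 were tested, and 0 passed in TAC_DMSO against sham, where their median was 0.29. Ankrd2, a stretch-responsive titin-binding protein, was not detected in sham and was at least 1.78-fold higher in TAC_DMSO (adjusted p = 0.0564). Tgfb2, a growth factor, and Xirp2, an actin-binding intercalated disc protein, differed by 1.28 and 1.09 (adjusted p of 0.0764 and 0.0775). In TAC_BIX against sham 2 rose, Xirp2 by 1.60 (adjusted p = 0.0223) and Tgfb2 by 1.27 (adjusted p = 0.0421), with a list median of 0.37. Between the constricted groups 0 passed, the median was 0.12, and the smallest p belonged to Mt2 (-0.88), Ankrd2 (-0.68) and Fhl2 (0.43). Fhl1, Ankrd1 and Slc2a1 differed by 0.86, 0.50 and 0.61 in TAC_BIX against sham without passing.

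Among 27 regulators of the programme, 22 were tested, and their medians were -0.12, 0.09 and 0.02 in the same order of comparisons. Tbx20, a cardiac T-box factor, rose by 1.34 in TAC_DMSO against sham (adjusted p = 0.0499) and by 1.68 in TAC_BIX against sham (adjusted p = 0.0161), although its probes differed in sign in the second. No other regulator passed in any comparison. Ezh2, the H3 lysine 27 methyltransferase, differed by 0.91 in TAC_DMSO against sham, Tbx5 by -0.67 and the thyroid hormone receptor Thra, which controls the myosin switch, by -0.52 (adjusted p of 0.104, 0.140 and 0.157). Between TAC_BIX and TAC_DMSO the smallest p belonged to Thra (0.43), Gata4 (0.38) and Tead1 (0.44). In TAC_BIX against sham Hopx, Nkx2-5 and Mef2c differed by -0.48, 0.55 and 0.52, the probes of Mef2c differing in sign. The drug's targets had differences of 0.24 for Ehmt2 and -0.11 for Ehmt1 between TAC_BIX and TAC_DMSO, with adjusted p of 0.478 and 0.742. The Ehmt2 probes differed in sign, and Ehmt1 was detected on 0 sham arrays, 2 TAC_DMSO arrays and 1 TAC_BIX array.

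The genes whose values followed each variable member most closely were found by Pearson correlation over the 6 arrays, among 2582 genes that spanned at least 1 log2 unit, as members had to. With 3 groups among 6 arrays a high correlation can come from the group means alone. Ciart, a circadian repressor, came first for both Acta1 (r = 0.995) and Nppa (r = 0.977), followed for both by Chaf1a, a subunit of chromatin assembly factor 1 (0.994 and 0.977). Ciart means were 6.15 in sham, 8.15 in TAC_DMSO and 8.12 in TAC_BIX. Next came Sppl2a for Acta1 (0.993) and Zc3h13 for Nppa (0.966). Mybpc2 was closest to Triqk (0.995), Snx10 (0.992) and Smarca5-ps (0.988).

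Myh7 had its own neighbours, Nsdhl (0.976), Bcl2 (0.957) and Mcu (0.956). At r above 0.95 there were 45 genes for Acta1, 38 for Mybpc2, 19 for Nppa and 7 for Myh7. Nppb, Actc1 and Myh6 spanned 0.95, 0.43 and 0.19 log2 units and were not searched.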

How the data were processed

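RNA of 3 groups of 2 samples was hybridised to 6 arrays. The authors deposited average bead signal intensity per probe, not normalized, with a detection p-value beside each signal. The authors also deposited log2 values with 1 distribution on all arrays. The submitters' processing notes name lumi, limma and GenomeStudio 2011.1 without their roles. Signals were background corrected from the detection p-values, quantile normalized and log2 transformed with neqc (limma 3.58.1, R 4.3.3, offset 16). Probes with a detection p under 0.05 on at least 2 of 6 arrays were kept, 19273 of 45281. Of all probes, 34885 had 1 gene in the platform's annotation, 18 several and 10378 none. Entrez identifiers matched 34807 probes to RefSeq names (GRCm38.p6) and changed 0 symbols. The kept probe with the highest mean stood for a gene.

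limma's lmFit and eBayes were fitted to all 6 arrays with 1 mean per group (3 residual and 4.62 prior degrees of freedom, prior SD 0.206). Tests were two-sided and adjusted by Benjamini-Hochberg over 10538 genes, with calls at an adjusted p under 0.05. A difference is the first group minus the second on the log2(signal + offset) scale, which understates changes of dim probes. "At least" folds set the brighter group against the lowest detected signal or the probe's own. The number of arrays limits the precision, and an exact permutation test of 2 against 2 cannot go below p = 0.333. Sums of marker signals use deposited signals.

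The members, the 4 pathway lists, the 8 marker lists, the motifs and the naming rule were chosen with earlier results of these data known. The rule named each member, every called list gene and up to 3 more per list and comparison by smallest p, and the 3 closest genes by correlation per member. Ehmt1 and Ehmt2 were named outside it, and the marker genes by their own lists. Gene-level steps were tested on simulated data. Neither slide nor batch was recorded in the sources used here. Replicate differences correlated at -0.24 (sham and TAC_DMSO), 0.09 (sham and TAC_BIX) and -0.16 (TAC_DMSO and TAC_BIX) across genes. Such correlations cannot settle whether replicate numbers pair the arrays. Myh7 was higher on replicate 2 than on replicate 1 in every group, and its SE was 0.93 as reported and 0.39 with the replicate block. Start regions came from RefSeq (GRCm38.p6), which held all 8 members.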

Additional observations from a re-analysis of the deposited data

How the results depend on the processing

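Over 17 alternatives, 302 of 357 recomputed member differences kept their direction and side of the threshold, 35 lost the call, 5 gained it and 15 changed sign, 0 of them called as reported. The members called in TAC_DMSO against sham went from 3 to 1 without the detection filter (Acta1), 0 with only the 2 groups compared, 0 with the replicate block, and 0 to 2 when an array was left out. In TAC_BIX against sham the 3 calls became 5 with median scaling, which added Nppb and Myh7, and 0 to 3 when an array was left out. Median scaling called 3767 of 10538 genes in TAC_BIX against sham (35.7%), against 701 (6.65%) as reported. The fit with the replicate block called 4 members there, adding Myh7, and 253 genes in all (2.4%). In TAC_BIX against TAC_DMSO the count of members called was 0 throughout. Over all genes, the counts ranged from 0 to 952, 0 to 709 and 0 to 3767 in TAC_DMSO against sham, TAC_BIX against TAC_DMSO and TAC_BIX against sham. Median scaling in place of quantile normalization moved the median of all genes by 0.31, 0.23 and 0.53, and relative to these shifts Acta1, Nppa and Mybpc2 differed by 1.95, 1.25 and 2.28 in TAC_DMSO against sham and by 1.84, 0.96 and 2.18 in TAC_BIX against sham.

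Sign changes came with 3 kinds of setting. With median scaling, TAC_DMSO minus sham was 0.11 for Actc1 and 0.054 for Myh6, Mybpc2 was 0.13 in TAC_BIX minus TAC_DMSO, and Myh6 was 0.13 in TAC_BIX minus sham. Relative to the shift of all genes these 4 values were -0.20, -0.26, -0.11 and -0.40, with the reported sign. Relative to that shift, values above 0 as reported became negative for Acta1, Actc1 and Myh6 in TAC_BIX minus TAC_DMSO (-0.12, -0.13 and -0.16) and for Actc1 in TAC_BIX minus sham (-0.32), none of them called. With the mean of kept probes Myh6 was 0.17 in TAC_BIX minus sham. Leaving out 1 array gave, for TAC_DMSO minus sham, -0.26 to 0.14 for Actc1 (positive without sham replicate 2). For TAC_BIX minus sham it gave -0.11 to 0.27 for Actc1 (negative without sham replicate 1 or TAC_BIX replicate 1) and -0.057 to 0.041 for Myh6 (positive without sham replicate 2 or TAC_BIX replicate 2). For TAC_BIX minus TAC_DMSO it gave -0.42 to 0.24 for Mybpc2 and -0.26 to 0.13 for Nppb (positive without TAC_DMSO replicate 1), -0.20 to 0.021 for Nppa and -0.40 to 2.53 for Myh7 (sign changed without TAC_BIX replicate 2), and -0.0024 to 0.28 for Actc1 (negative without TAC_BIX replicate 1). The cause of the sign changes was not tested. Nppb was called in TAC_DMSO against sham with median scaling (0.98, or 0.67 relative to the shift, adjusted p = 0.0314), and in TAC_BIX against sham with it (0.81, or 0.27 relative to the shift, adjusted p = 0.0315) and with a robust, intensity-dependent prior (adjusted p = 0.0497). Of all genes, median scaling called 9.03% in TAC_DMSO against sham and 35.7% in TAC_BIX against sham, and that prior called 10.8% in the latter. Signals near background limit Tnni1 and, on sham replicate 1, 2 of the 3 Myh7 probes. Groups of 2 arrays could not be tested for outlying arrays.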
